A study of Mus musculus with 8 samples.

Results

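The glucocorticoid-responsive genes described here are Nr3c1, the receptor, Hsd11b1, an enzyme that regenerates its hormone, and 8 target genes of the receptor (Tsc22d3, Fkbp5, Sgk1, Klf9, Zbtb16, Glul, Map3k6 and Ddit4), 10 of the 32285 genes in the count tables. They were measured in single cells from inguinal white adipose tissue (iWAT) of mice, in the stromal vascular fraction, which holds the cells of digested fat that do not float as adipocytes do. The genes were chosen by symbol, from a list drawn up with earlier results of the same diet comparison known, so that their diet differences are a description and not a test. On build GRCm38 they lie on chromosomes 18 (Nr3c1), 1 (Hsd11b1 and Glul), X (Tsc22d3), 17 (Fkbp5), 10 (Sgk1 and Ddit4), 19 (Klf9), 9 (Zbtb16) and 4 (Map3k6).

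Droplet libraries (10x Genomics) came from C57BL/6 mice with free access to food (Ad-Lib, 4 libraries, replicates 1, 3, 5 and 7) or fed in 2 windows each night (twice-a-night, TAN, 4 libraries, replicates 2, 4, 6 and 8). The labels give an age of 8 weeks for all 8, while the study describes male mice several months old, after months of either feeding. By the study's methods tissue was taken in the dark phase, after the first feeding window of the TAN mice. The study treats the libraries of each diet as separate animals, but the labels name no animal, so the spread between libraries may be partly technical.

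UMIs (unique molecular identifiers, each a counted RNA molecule) were summed per library over cells gated by marker UMIs. The 5 lineage gates were Pdgfra+ (stromal cells, among them adipocyte progenitors), Pecam1+ (endothelial cells), C1qa+ (macrophages), Cd3e+ (T cells) and Cd79a+ (B cells). Pdgfra+ cells were also split by 6 markers into a Dpp4 subset (Dpp4 and Pi16), an Icam1 subset (Icam1 and Col15a1) and an F3 subset (F3 and Gdf10), which are part of the Pdgfra+ sums and no independent samples. Levels are a gene's UMIs scaled to counts per 1e+06 UMIs of the summed cells (CPM), and such a sum alone does not tell fewer cells expressing a gene from less RNA of it per cell.

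Glucocorticoids are steroid hormones of the adrenal cortex (corticosterone in mice) whose level rises before the active phase, with fasting and with stress. They bind the glucocorticoid receptor in the cytoplasm, the receptor moves to the nucleus, and there it binds DNA at glucocorticoid response elements and raises or lowers transcription of nearby genes. In fat depots these hormones are known to act on preadipocyte differentiation, on lipid storage and on immune cells, and enzymes inside the cell can regenerate or destroy the active hormone. The study measured serum corticosterone across the day in mice of both diets, and those values are not used here.

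Of 44427 cell barcodes deposited, 36370 passed limits of 700 to 30000 UMIs, 200 to 8000 genes and at most 10% mitochondrial UMIs, with 3717 to 5654 cells in a library. Total UMIs per library ranged from 25320800 to 37140950. TAN libraries tended to be shallower, with a median of 3925.5 to 5189 UMIs per kept cell against 5060 to 6560.5 in Ad-Lib libraries, and their median mitochondrial share before that filter was 2.80 to 4.24% against 1.79 to 2.54%. The part of the mitochondrial share in the diet differences was not tested. Depth was made equal in an alternative that thinned each cell to 2000 UMIs and gated the cells anew on the thinned counts. Any pair of libraries shared 5 to 16 barcodes. No doublet caller was run, and a droplet with UMIs of markers from more than 1 lineage was left out by the gates (a single C1qa UMI was allowed). Each gate held its own marker genes: 5 stromal genes summed to 40065 to 52550.1 CPM in Pdgfra+ cells, 5 endothelial genes to 3891 to 5939 CPM in Pecam1+ cells, 5 macrophage genes to 7701 to 9434 CPM in C1qa+ cells, 5 T cell genes to 2526 to 3614 CPM in Cd3e+ cells and 5 B cell genes to 4453 to 78356 CPM in Cd79a+ cells. The Cd79a+ sums were uneven: Ad-Lib libraries 1 and 7 gave 21 cells each, and those of Ad-Lib library 1 had a median of 14789 UMIs against 3075.5 to 3833 in the other 7 libraries. In the Cd3e+ cells of Ad-Lib library 1 the B cell genes summed to 3241 CPM, against 64.2 to 213 CPM in the other 7 libraries.

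Promoter windows of RefSeq (build GRCm38.p6, 250 bases before to 50 bases after each start site) were found for 8 of the 10 genes, and show whether the letters of a response element lie next to a start site. A glucocorticoid response element is known as AGAACA, 3 bases of any kind and TGTTCT, and a looser form GNACANNNTGTNC keeps the central letters; both read the same on either strand, and the full form always holds the loose form. The full form stood in 3 of 32817 windows in the table (0.00914%) and the loose form in 156 (0.475%). Of the 15 windows of these 8 genes, 1 of Sgk1 held the full form, from base -189 to -175 of a start site, and 1 of Map3k6 held the loose form, from -181 to -169. The 6-letter site AGAACA or TGTTCT alone stood in 19.0% of all windows and in windows of Tsc22d3 and Sgk1. The windows of Hsd11b1, Fkbp5, Klf9, Glul and Ddit4 held none of the 3 forms, which says only that these letters are not next to those start sites. In the 25 other target genes with a window, the loose form stood in those of Txnip and Mt1, and the full form in none.

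The 250 bases before the start site are shown for the Sgk1 and Map3k6 windows with an element, and for Klf9, the gene called between the diets in the most sets (given below), whose window holds no match. Each is written 5′ to 3′ on the gene's strand (plus in all 3), and capitals mark the full form in Sgk1 and the loose form in Map3k6. The Sgk1 window, chr10:21993640-21993889, lies inside an intron of longer Sgk1 transcripts and before the start of a shorter transcript. The Map3k6 window, chr4:133240568-133240817, and the Klf9 window, chr19:23140976-23141225, lie outside the annotated transcripts of their gene.
Sgk1: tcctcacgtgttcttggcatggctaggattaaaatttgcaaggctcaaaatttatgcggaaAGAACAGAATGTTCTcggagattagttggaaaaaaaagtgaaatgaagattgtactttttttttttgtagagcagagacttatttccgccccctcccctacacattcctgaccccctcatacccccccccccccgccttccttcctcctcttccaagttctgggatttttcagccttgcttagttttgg
Map3k6: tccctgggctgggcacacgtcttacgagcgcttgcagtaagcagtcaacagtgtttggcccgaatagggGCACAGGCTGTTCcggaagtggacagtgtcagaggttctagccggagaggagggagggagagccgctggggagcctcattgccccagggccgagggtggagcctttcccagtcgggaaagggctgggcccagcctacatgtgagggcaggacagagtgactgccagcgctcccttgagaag
Klf9: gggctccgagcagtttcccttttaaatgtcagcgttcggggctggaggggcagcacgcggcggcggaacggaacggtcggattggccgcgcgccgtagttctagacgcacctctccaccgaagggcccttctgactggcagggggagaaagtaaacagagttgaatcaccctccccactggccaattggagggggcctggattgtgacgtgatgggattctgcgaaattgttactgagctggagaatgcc

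The rule for choosing the genes concerned the diets and used no comparison of lineages, and levels across the 5 lineages were compared within libraries. Neighbours in the order of each gene's mean log2 level were tested by an exact two-sided paired permutation test over the 8 libraries on log2(CPM + 1), with Benjamini-Hochberg adjustment over 40 pairs. The smallest adjusted p reached was 0.0164, reached where all 8 libraries moved the same way. Means below are over all 8 libraries of both diets, so their SD holds the diet difference as well.

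Nr3c1, the glucocorticoid receptor itself, was read in every lineage, at 281 ± 21.9 CPM (SD, n = 8) in C1qa+ cells, 269.7 ± 15.8 CPM in Pecam1+ cells, 219 ± 11.8 CPM in Pdgfra+ cells, 129 ± 46.1 CPM in Cd3e+ cells and 96.9 ± 21.1 CPM in Cd79a+ cells. C1qa+ and Pecam1+ cells did not differ beyond their spread (exact permutation test, adjusted p = 0.469), nor did Cd3e+ and Cd79a+ cells (adjusted p = 0.262). From Pdgfra+ to Cd3e+ cells the receptor's level stepped down by 0.83 ± 0.51 (mean ± SD of the log2 difference) in all 8 libraries (exact permutation test, adjusted p = 0.0164).

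Hsd11b1, the enzyme that regenerates active glucocorticoid inside the cell, was by contrast concentrated in the stroma. Its level was 339 ± 60.7 CPM in Pdgfra+ cells, 60.7 ± 13.9 CPM in Cd3e+ cells, 12.5 ± 4.23 CPM in Cd79a+ cells, 8.80 ± 3.84 CPM in Pecam1+ cells and 2.52 ± 1.30 CPM in C1qa+ cells. Pdgfra+ cells exceeded Cd3e+ cells by 2.48 ± 0.28 log2 units in 8 of 8 libraries (exact permutation test, adjusted p = 0.0164), and Cd79a+ and Pecam1+ cells did not differ beyond their spread (adjusted p = 0.156). The 5 stromal genes summed to 66.5 to 1329 CPM in the Cd3e+ sums against 40065 to 52550.1 CPM in Pdgfra+ cells. The part of stromal RNA in the Cd3e+ level of Hsd11b1 was not tested.

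The target genes fell into patterns of their own. Klf9, a Kruppel-like transcription factor, and Zbtb16, a zinc finger transcription factor, stood highest in Pdgfra+ cells, at 373 ± 124 and 55.1 ± 27.4 CPM. From there Klf9 went down to 287 ± 59.3 CPM in Pecam1+, 78.5 ± 34.2 CPM in C1qa+, 22.3 ± 11.3 CPM in Cd3e+ and 15.1 ± 10.7 CPM in Cd79a+ cells, each step but the last past the adjusted threshold (exact permutation test, adjusted p = 0.172 for the last). Zbtb16 measured 26.2 ± 16.5 CPM in Pecam1+, 14.7 ± 2.42 CPM in C1qa+, 4.46 ± 1.86 CPM in Cd3e+ and 0.749 ± 1.20 CPM in Cd79a+ cells, and Pecam1+ and C1qa+ cells did not differ beyond their spread (adjusted p = 0.352 by the exact permutation test). Fkbp5, a co-chaperone that lowers the receptor's affinity for hormone, also stood highest in Pdgfra+ cells at 64.2 ± 22.2 CPM, then at 39.0 ± 15.7 CPM in C1qa+, 33.4 ± 10.4 CPM in Cd3e+, 19.3 ± 11.6 CPM in Cd79a+ and 15.7 ± 3.77 CPM in Pecam1+ cells. For Fkbp5 neither C1qa+ against Cd3e+ (adjusted p = 0.694) nor Cd79a+ against Pecam1+ cells (adjusted p = 0.844) passed the exact permutation test.

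Endothelial cells led for 3 targets. Sgk1, a kinase that regulates ion transport, measured 374 ± 54.8 CPM in Pecam1+ cells, 157 ± 46.3 CPM in Pdgfra+, 36.0 ± 14.5 CPM in Cd3e+, 15.9 ± 10.9 CPM in Cd79a+ and 14.9 ± 3.78 CPM in C1qa+ cells. Ddit4, an inhibitor of mTOR signalling, measured 42.8 ± 19.6 CPM in Pecam1+ cells and 11.8 ± 3.43 CPM in Cd3e+, 6.27 ± 3.83 CPM in Pdgfra+, 3.68 ± 2.86 CPM in Cd79a+ and 1.47 ± 0.847 CPM in C1qa+ cells. Map3k6, a kinase at the head of a MAP kinase cascade, measured 20.5 ± 7.56 CPM in Pecam1+ and 15.6 ± 4.68 CPM in Pdgfra+ cells, and 4.52 ± 2.02, 1.28 ± 2.75 and 0.204 ± 0.399 CPM in C1qa+, Cd3e+ and Cd79a+ cells, where it rested on 100, 10 and 3 UMIs. The lead of Pecam1+ cells over the next lineage held in 8 of 8 libraries for all 3 genes (exact permutation test, adjusted p = 0.0164 each), by 1.28 ± 0.42 log2 units for Sgk1, 1.70 ± 0.79 for Ddit4 and 0.35 ± 0.21 for Map3k6, the last of which did not pass after thinning each cell to 2000 UMIs. Lower in the order, Sgk1 in C1qa+ against Cd79a+ cells, Map3k6 in Cd3e+ against Cd79a+ cells, and Ddit4 in Pdgfra+ against Cd79a+ and in Cd79a+ against C1qa+ cells did not differ beyond their spread (adjusted p from 0.139 to 0.844, exact permutation test).

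Glul and Tsc22d3 led in leukocytes. Glul, glutamine synthetase, measured 524 ± 83.9 CPM in C1qa+ cells, 228 ± 42.7 CPM in Pdgfra+, 159 ± 28.8 CPM in Pecam1+, 32.7 ± 13.3 CPM in Cd3e+ and 26.0 ± 11.5 CPM in Cd79a+ cells, with C1qa+ above Pdgfra+ cells by 1.20 ± 0.12 log2 units in 8 of 8 libraries (exact permutation test, adjusted p = 0.0164). Tsc22d3, known as GILZ, a leucine zipper protein with anti-inflammatory action, was read in every lineage, at 228 ± 129 CPM in Cd79a+, 204 ± 61.1 CPM in C1qa+, 147 ± 47.1 CPM in Pdgfra+, 144 ± 58.7 CPM in Cd3e+ and 78.9 ± 17.9 CPM in Pecam1+ cells. Cd79a+ and C1qa+ cells (adjusted p = 0.781) and Pdgfra+ and Cd3e+ cells (adjusted p = 0.735) did not differ beyond their spread by the exact permutation test, while C1qa+ lay above Pdgfra+ cells by 0.47 ± 0.32 and Cd3e+ above Pecam1+ cells by 0.79 ± 0.34 log2 units in 8 of 8 libraries each (adjusted p = 0.0164 for both). For Glul, Cd3e+ and Cd79a+ cells did not differ either (adjusted p = 0.473, exact permutation test).

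**Figure D1:**
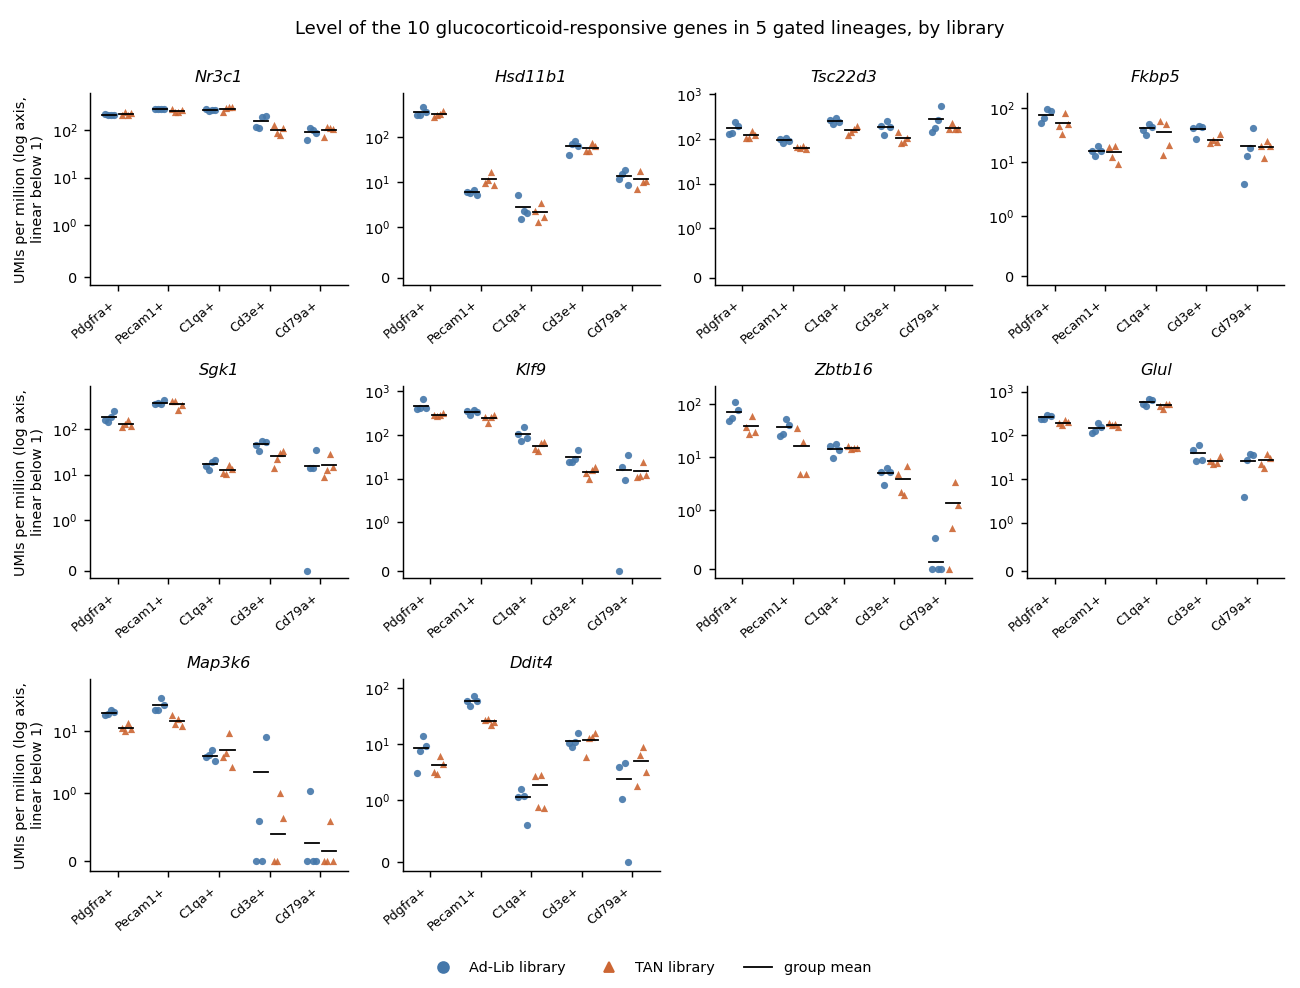
Level of each gene in CPM (logarithmic vertical axis, linear below 1) in 5 gated lineages, with a circle for each Ad-Lib library, a triangle for each TAN library and a line at each group mean. Hsd11b1 stands at 339 CPM in Pdgfra+ cells and at 2.52 CPM in C1qa+ cells on average, while Nr3c1 lies between 96.9 and 281 CPM in all 5 lineages.

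Within the Pdgfra+ cells the 3 subsets, tested the same way over 20 neighbour pairs, differed most in the enzyme and in Sgk1. Hsd11b1 measured 553 ± 106 CPM in the Icam1 subset, 436 ± 63.1 CPM in the F3 subset and 76.0 ± 16.9 CPM in the Dpp4 subset, and Sgk1 253 ± 64.2, 192 ± 50.2 and 40.0 ± 17.6 CPM. The step from the F3 to the Dpp4 subset was 2.53 ± 0.27 log2 units for Hsd11b1 and 2.28 ± 0.36 for Sgk1, in 8 of 8 libraries each (exact permutation test, adjusted p = 0.0156, the smallest reached in this family). Klf9 followed the same order at 462 ± 162, 416 ± 139 and 257 ± 66.5 CPM, and so did Tsc22d3, at 176 ± 68.7, 149 ± 49.3 and 115 ± 23.6 CPM, and after thinning their leads in the Icam1 over the F3 subset were 0.25 and 0.22 log2 units, against 0.15 ± 0.10 and 0.21 ± 0.16 before, but did not pass in those smaller sums. Nr3c1 spanned a smaller step, at 238 ± 17.1, 227 ± 18.5 and 196 ± 10.9 CPM, with the Icam1 and F3 subsets not differing beyond their spread (adjusted p = 0.195, exact permutation test) and the F3 above the Dpp4 subset by 0.21 ± 0.10 log2 units in 8 of 8 libraries (exact permutation test, adjusted p = 0.0156).

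The opposite order held for 3 targets. Glul measured 311 ± 23.7 CPM in the Dpp4 subset, 205 ± 79.9 CPM in the F3 subset and 149 ± 44.8 CPM in the Icam1 subset, with both steps in 8 of 8 libraries (exact permutation test, adjusted p = 0.0156). Zbtb16 at 67.5 ± 26.8 and Ddit4 at 9.47 ± 4.25 CPM were also highest in the Dpp4 subset, by 0.59 ± 0.34 and 1.24 ± 0.77 log2 units over the F3 subset, leads that were 0.54 and 1.49 after thinning but did not pass in those smaller sums (unadjusted exact permutation p = 0.133 and 0.0938). With a pseudocount of 10 CPM that of Ddit4 was 0.45. Their F3 and Icam1 levels (49.1 ± 30.3 and 45.1 ± 26.9 CPM for Zbtb16, 4.38 ± 4.09 and 4.05 ± 4.40 CPM for Ddit4) did not differ beyond their spread (exact permutation test, adjusted p = 0.590 and 0.875). Fkbp5 and Map3k6 showed no step past the threshold, with subset means of 59.1 to 66.5 CPM for Fkbp5 and 14.2 to 17.1 CPM for Map3k6 and adjusted p of 0.0670 to 0.650 over their 4 steps by the exact permutation test.

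Genes whose level followed each member most closely over the 40 sums of 5 lineages in 8 libraries were listed by Pearson's r among 8678 genes averaging at least 10 CPM, as a description: the sums share libraries and lineages and are not independent. For Nr3c1 they were Fnip2 (0.960), Tnrc18 (0.958), Leprot (0.949), and for Hsd11b1 they were Prdx6 (0.936), Ift27 (0.933), Slc1a5 (0.930). Klf9 ran closest to Gstm1 (0.967), Dpysl2 (0.952), Ctsl (0.944), and Zbtb16 to Selenon (0.921), Ctdspl (0.921), Tpbgl (0.918). Endothelial-led Sgk1 ran closest to Ece1 (0.969), Ly6c1 (0.967), Eva1b (0.956), among them Ece1 and Ly6c1, which are known from endothelium, and Ddit4 to Abcb1a (0.931), Ube2h (0.895), Smco4 (0.892). Glul ran closest to Selenop (0.975), Twf1 (0.972), Lamp1 (0.969). The values were lower for Fkbp5, whose nearest included Sidt2 (0.794), Smad3 (0.786), and for Tsc22d3, whose nearest were Sdc4 (0.766), Akr1b10 (0.764), Anapc13 (0.741). Map3k6 averaged under 10 CPM over these sums and was left out.

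Between the diets, values are given as a description with no p for these 10 genes, because the list was drawn up with results of this comparison known. The difference is the log2 fold change of TAN over Ad-Lib with its SE from edgeR's quasi-likelihood fit across all genes of the set, and a gene is said to be called where its Benjamini-Hochberg adjusted p was under 0.05 and its change at least 1.5-fold. Libraries are always given in the order Ad-Lib 1, 3, 5 and 7 and TAN 2, 4, 6 and 8. The share of all genes called, given beside each set's count, is background, and nothing is read from the members' counts against it.

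In Pdgfra+ cells, 2 of 10 genes were called lower in TAN (Klf9 and Map3k6), where 0.517% of 12182 genes were called lower and 0.271% higher. The Icam1 subset had 5 of 9 genes tested called lower (Tsc22d3, Fkbp5, Klf9, Glul and Map3k6), beside 0.918% of all genes lower and 0.354% higher. The F3 subset had 4 of 9 called lower (Klf9, Zbtb16, Glul and Map3k6), beside 0.667% lower and 0.343% higher. Of the 5 marker genes of the Dpp4 subset, 1 (Anxa3) was called lower there too, with list sums of 198 to 288 CPM in Ad-Lib and 143 to 215 CPM in TAN libraries that overlapped, and its part in the result was not tested. The Dpp4 subset had 0 of 10 called by edgeR, beside 0.332% lower and 0.104% higher, with 5 of the 10 at an unadjusted p under 0.05 and 1 called by DESeq2. In Pecam1+ cells Ddit4 was called lower and Hsd11b1 higher among 10 tested, beside 0.684% lower and 0.411% higher. C1qa+ cells had 2 of 8 called lower (Tsc22d3 and Klf9), beside 0.356% lower and 0.264% higher, and Cd3e+ cells 2 of 8, the same 2 genes, beside 3.46% lower and 1.06% higher. In Cd79a+ cells no gene at all was called in either direction by edgeR (0 of 6828, so 0%) or by DESeq2 (0), with 113 genes at an unadjusted p under 0.05 and 1 of them among the 7 members tested. The genes not tested failed the filter on low counts: Ddit4 in the Icam1 and F3 subsets and in C1qa+ and Cd79a+ cells, Hsd11b1 in C1qa+ cells, and Zbtb16 and Map3k6 in Cd3e+ and Cd79a+ cells.

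**Figure D2:**
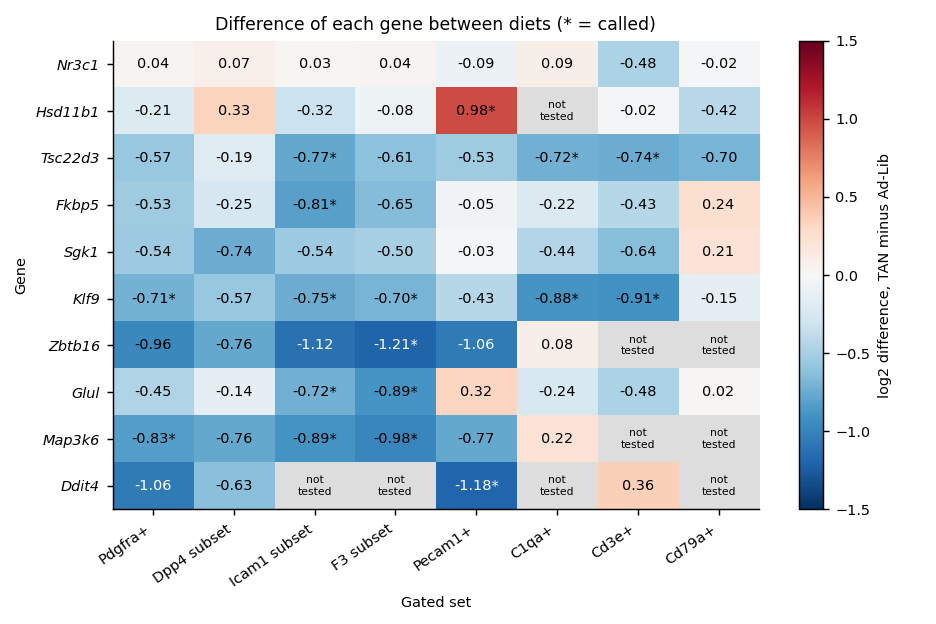
Log2 difference of TAN minus Ad-Lib for the 10 genes (rows) in 8 gated sets (columns), with blue for lower and red for higher in TAN, an asterisk where called and grey where not tested. Klf9 runs from -0.15 to -0.91 and lies below 0 in all 8 sets, while Nr3c1 lies between -0.09 and 0.09 in 7 of 8.

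The medians over the members tested were -0.56 in Pdgfra+ cells, -0.41 in the Dpp4 subset, -0.75 in the Icam1 subset, -0.65 in the F3 subset, -0.26 in Pecam1+, -0.23 in C1qa+, -0.48 in Cd3e+ and -0.02 in Cd79a+ cells, where the median of all genes lay between -0.004 and 0.01. Of the 8 libraries, Ad-Lib library 5 was the highest for 8 of 10 genes in Pdgfra+ cells, 6 in Pecam1+, 4 in C1qa+, 5 in Cd3e+ and 1 in Cd79a+ cells, and TAN library 4 the lowest for 6, 3, 5, 3 and 0 of 10. These ranks hold the diet difference as well and were not set against all genes.

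The receptor gene itself was close to level between the diets. Nr3c1 in Pdgfra+ cells measured 219, 208, 214 and 216 CPM in the Ad-Lib libraries and 216, 244, 208 and 228 CPM in the TAN libraries, a difference of 0.04 ± 0.08. In Pecam1+ cells it measured 279, 278, 283 and 281 CPM in the Ad-Lib libraries and 277, 242, 248 and 267 CPM in the TAN libraries, where the groups did not overlap although the difference was -0.09 ± 0.08. The widest difference was -0.48 ± 0.19 in Cd3e+ cells, where the groups overlapped (80.3 to 129.8 CPM in TAN and 112 to 206 CPM in Ad-Lib libraries).

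The sign of the Hsd11b1 difference was not the same in every set, and whether sets differed was not tested. In its main site, the Pdgfra+ cells, it measured 312, 303, 469 and 364 CPM in the Ad-Lib libraries and 278, 307, 314 and 369 CPM in the TAN libraries, a difference of -0.21 ± 0.11 with overlapping groups. The Icam1 subset gave -0.32 ± 0.11 and the Dpp4 subset 0.33 ± 0.15, neither called. In Pecam1+ cells Hsd11b1 measured 6.13, 5.72, 6.88 and 5.08 CPM in the Ad-Lib libraries and 9.66, 11.5, 16.6 and 8.85 CPM in the TAN libraries, a difference of 0.98 ± 0.22. All 4 TAN libraries lay above the Ad-Lib libraries there, at levels far under those of the stroma, and 5 stromal genes in the same sums ranged over 480.1 to 749.7 CPM in Ad-Lib and 289.7 to 583 CPM in TAN libraries. The 5 marker genes of the Dpp4 subset moved with Hsd11b1 there, at 249.6 to 274 CPM in Ad-Lib and 315 to 366 CPM in TAN libraries without overlap, most of it Anxa3 and none called, and their part in the result was not tested. The 5 T cell genes ranged over 8.12 to 127 CPM in Ad-Lib and 41.2 to 471 CPM in TAN libraries of the Pecam1+ sums, with overlap. TAN libraries 6 and 4 were highest both for these genes and for Hsd11b1, which averaged 60.7 CPM in Cd3e+ cells. The part of T cell RNA in the result was not tested either. The Hsd11b1 call was lost in 6 of 8 fits that left out 1 library (Ad-Lib 1, 3, 5 or 7, or TAN 4 or 6), with differences of 0.79 to 1.10.

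Klf9 was the target lower in TAN without overlap in the most sets. Its TAN libraries were all below its Ad-Lib libraries in 7 of 8 sets, and it was called in 5. Those 7 sets hold Pdgfra+ cells and their 3 subsets, which are not independent, and the share of all genes separated in this way was not counted. In Pdgfra+ cells Klf9 measured 378, 405, 643 and 416 CPM in the Ad-Lib libraries and 281, 268, 289 and 306 CPM in the TAN libraries, a difference of -0.71 ± 0.12. Ad-Lib library 5 stood well above the other 3, and without it the difference was -0.54 and no longer called, nor was it without TAN library 2 or TAN library 4. C1qa+ cells gave 101, 70.4, 148 and 86.2 CPM in the Ad-Lib libraries and 46.2, 42.3, 64.5 and 68.5 CPM in the TAN libraries, a difference of -0.88 ± 0.17, which was not called without Ad-Lib library 1, TAN library 2 or TAN library 4. In Pecam1+ cells Klf9 measured 341, 283, 368 and 338 CPM in the Ad-Lib libraries and 249, 186, 260.1 and 274 CPM in the TAN libraries, a difference of -0.43 ± 0.11 that stayed under 1.5-fold and was not called. Cd3e+ cells gave 24.3, 24.1, 28.3 and 45.5 CPM in the Ad-Lib libraries and 13.1, 9.60, 15.6 and 18.1 CPM in the TAN libraries, a difference of -0.91 ± 0.24 resting on 239 UMIs in all, with a call kept in only 1 of 8 fits that left out 1 library. The groups did not overlap in any of these 4 lineages, and in Cd79a+ cells, with 124 UMIs, they did. Among the Pdgfra+ subsets the differences were -0.57 ± 0.11 in the Dpp4, -0.75 ± 0.13 in the Icam1 and -0.70 ± 0.14 in the F3 subset, the latter 2 not called without Ad-Lib library 5 (-0.57 and -0.53), and that of the F3 subset also not without TAN library 4. In the Icam1 subset Klf9 had a UMI in 95.3 to 99.1% of cells in Ad-Lib libraries (median depth 10607 to 11913 UMIs) and in 88.0 to 94.0% in TAN libraries (9524 to 11423 UMIs), against 0 to 9.52% of Cd79a+ cells (3075.5 to 14789 UMIs), so most Icam1 subset cells of both diets held it.

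Tsc22d3 lay below 0 in all 8 sets and was called in 3. In C1qa+ cells it measured 268, 216, 291 and 239 CPM in the Ad-Lib libraries and 119, 139, 162 and 196 CPM in the TAN libraries, a difference of -0.72 ± 0.11, with every TAN library below every Ad-Lib library and the call kept in all 8 fits that left out 1 library. In Pecam1+ cells it measured 98.3, 82.6, 107 and 88.9 CPM in the Ad-Lib libraries and 65.6, 63.7, 67.4 and 58.0 CPM in the TAN libraries, again without overlap, a difference of -0.53 ± 0.09 just under 1.5-fold. Over all Pdgfra+ cells the difference was -0.57 ± 0.15 with overlapping groups and not called. The Icam1 subset gave 160.2, 160.4, 304 and 255 CPM in the Ad-Lib libraries and 117, 126, 172 and 114 CPM in the TAN libraries, a difference of -0.77 ± 0.17. There TAN library 6 lay above Ad-Lib libraries 1 and 3, and the call was lost in 5 of 8 leave-out fits (TAN 2, 4 or 8, or Ad-Lib 5 or 7). Cd3e+ cells gave 193, 124, 247 and 182 CPM in the Ad-Lib libraries and 141, 82.5, 82.9 and 102 CPM in the TAN libraries, a difference of -0.74 ± 0.19 with overlapping groups and a call lost in 6 of 8 leave-out fits. The Cd79a+ value of 532 CPM in Ad-Lib library 7 rested on 21 cells, and the difference there was -0.70 ± 0.32.

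**Figure D3:**
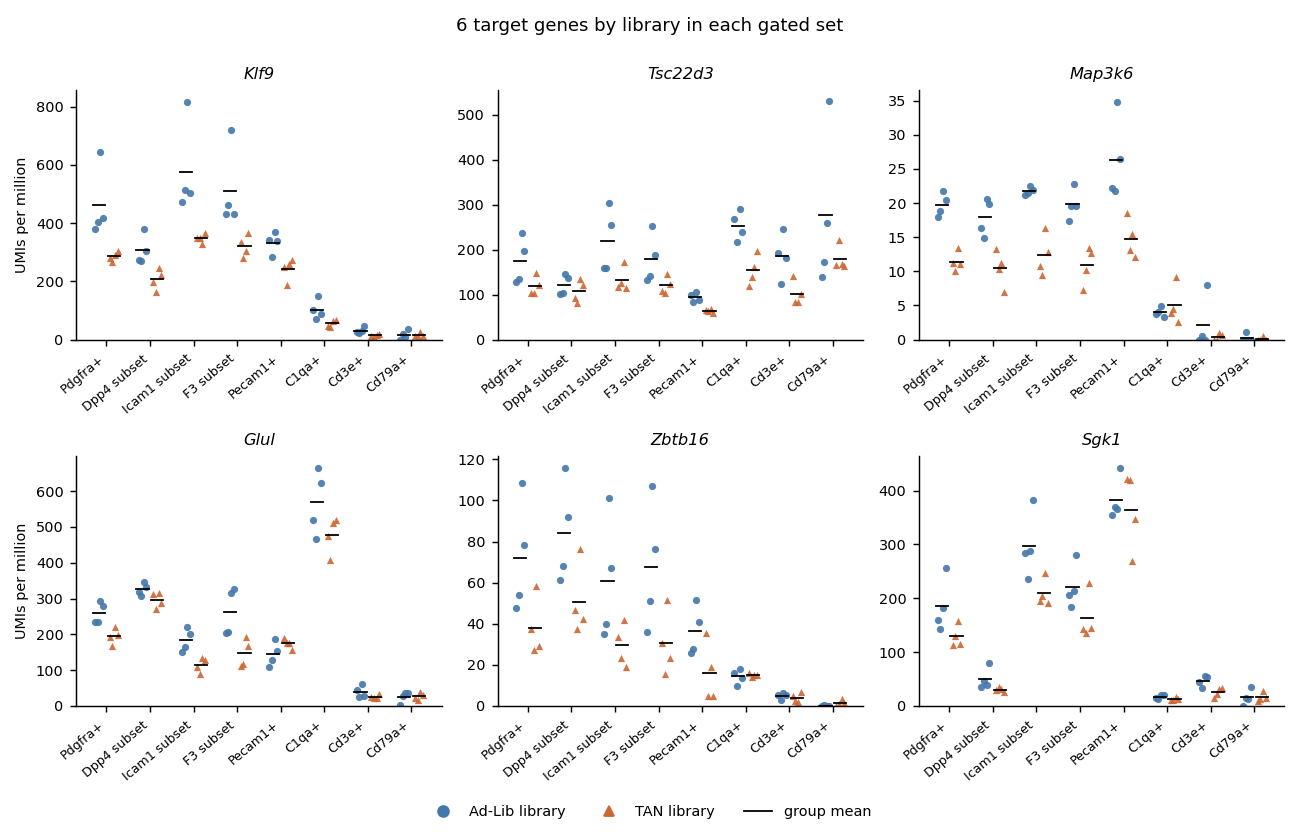
CPM of 6 target genes in 8 gated sets, with a circle for each Ad-Lib library, a triangle for each TAN library and a line at each group mean (vertical axes start at 0). Klf9 in Ad-Lib library 5 stands at 643 CPM in Pdgfra+ cells against 378 to 416 CPM in the other Ad-Lib libraries, and the TAN libraries lie at 268 to 306 CPM.

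Map3k6, the gene with the loose element before its start site, was lower in TAN in all 5 stromal and endothelial sets without overlap. In Pdgfra+ cells it measured 18.0, 18.9, 21.8 and 20.4 CPM in the Ad-Lib libraries and 11.2, 10.1, 13.4 and 11.0 CPM in the TAN libraries, a difference of -0.83 ± 0.09. After thinning each cell to 2000 UMIs the Pdgfra+ difference was -1.28 and still called. The Icam1 subset gave 21.2, 21.5, 22.4 and 21.9 CPM in the Ad-Lib libraries and 10.8, 9.39, 16.3 and 12.9 CPM in the TAN libraries, a difference of -0.89 ± 0.15. Both calls held in all 8 leave-out fits, although thinned counts of the subsets were too low for the gene to be tested, and that of the F3 subset (-0.98 ± 0.20) was lost without TAN library 2. In Pecam1+ cells it measured 22.2, 21.7, 34.8 and 26.4 CPM in the Ad-Lib libraries and 18.5, 13.1, 15.5 and 12.0 CPM in the TAN libraries, a difference of -0.77 ± 0.17 that was not called. In C1qa+ cells, at 2.60 to 9.21 CPM, the groups overlapped.

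Sgk1, the gene with the full element, was called in no set. The Dpp4 subset gave 35.2, 46.5, 38.6 and 80.5 CPM in the Ad-Lib libraries and 29.1, 34.2, 30.7 and 24.9 CPM in the TAN libraries, a difference of -0.74 ± 0.22 without overlap. In Pdgfra+ cells as a whole it measured 159, 143, 182 and 256 CPM in the Ad-Lib libraries and 114, 129.8, 158 and 116 CPM in the TAN libraries, a difference of -0.54 ± 0.15 with overlapping groups. In Pecam1+ cells, where its level was highest, it measured 355, 369, 366 and 442 CPM in the Ad-Lib libraries and 421, 419.7, 269 and 348 CPM in the TAN libraries, a difference of -0.03 ± 0.15. The endothelial libraries of both diets thus overlapped, with TAN library 6 lowest and Ad-Lib library 7 highest.

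Glul was called in 2 of the Pdgfra+ subsets. Glul in the F3 subset measured 204, 205, 315 and 326 CPM in the Ad-Lib libraries and 113, 117, 194 and 166 CPM in the TAN libraries, a difference of -0.89 ± 0.16, and in the Icam1 subset 149, 166, 220.1 and 202 CPM in the Ad-Lib libraries and 108, 89.2, 134 and 127 CPM in the TAN libraries, a difference of -0.72 ± 0.12. The groups did not overlap in either, and the F3 call was lost without TAN library 2. Over all Pdgfra+ cells the difference was -0.45 ± 0.08, without overlap but under 1.5-fold. In the Dpp4 subset, the highest of the 3 in level, Glul measured 317, 308, 345 and 332 CPM in the Ad-Lib libraries and 314, 269.6, 315 and 288 CPM in the TAN libraries, a difference of -0.14 ± 0.08 with overlap. Pecam1+ cells gave 0.32 ± 0.13 and C1qa+ cells -0.24 ± 0.09, both with overlap. Whether the diet difference of Glul itself differed between cell types was not tested.

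Ddit4 in Pecam1+ cells measured 60.2, 48.5, 72.4 and 59.1 CPM in the Ad-Lib libraries and 27.1, 28.1, 21.8 and 25.3 CPM in the TAN libraries, a difference of -1.18 ± 0.12, the lowest of all values tested there among the 10 genes. The TAN libraries reached at most 28.1 CPM and the Ad-Lib libraries at least 48.5 CPM, and the call held in all 8 leave-out fits. The 5 endothelial marker genes in the same sums were also lower in every TAN library, at 5029.7 to 5939 CPM in Ad-Lib and 3891 to 4707 CPM in TAN libraries, with none of the 5 called, and their part in the Pecam1+ differences between the diets, those of Ddit4, Klf9, Tsc22d3, Map3k6 and Nr3c1 and of the pathway genes below among them, was not tested. In Pdgfra+ cells Ddit4 measured 3.06, 7.39, 13.9 and 9.17 CPM in the Ad-Lib libraries and 3.16, 2.90, 6.10 and 4.47 CPM in the TAN libraries, a difference of -1.06 ± 0.37 with Ad-Lib library 1 among the TAN values. In Cd3e+ cells the difference was 0.36 ± 0.30 with overlapping groups.

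Fkbp5 and Zbtb16 varied widely among the TAN libraries. Fkbp5 in the Icam1 subset measured 52.0, 67.4, 88.6 and 87.0 CPM in the Ad-Lib libraries and 35.3, 27.3, 69.9 and 45.5 CPM in the TAN libraries, a difference of -0.81 ± 0.20. Zbtb16 in the F3 subset measured 36.1, 51.0, 107 and 76.5 CPM in the Ad-Lib libraries and 30.7, 15.7, 51.7 and 23.5 CPM in the TAN libraries, a difference of -1.21 ± 0.29. In both, TAN library 6 lay above the lowest Ad-Lib libraries, so the groups overlapped, and each call was kept in only 2 of 8 leave-out fits (those without Ad-Lib library 1 or TAN library 6). Over all Pdgfra+ cells Fkbp5 gave -0.53 ± 0.21 and Zbtb16 -0.96 ± 0.24, neither called. For Fkbp5 in Pecam1+ cells (-0.05 ± 0.22) and C1qa+ cells (-0.22 ± 0.28) the groups overlapped as well. Zbtb16 in Pecam1+ cells measured 25.5, 27.6, 51.7 and 40.7 CPM in the Ad-Lib libraries and 35.3, 4.83, 19.0 and 4.92 CPM in the TAN libraries, a difference of -1.06 ± 0.50, with TAN libraries 4 and 8 far below the rest.

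The rest of the pathway was read from 2 lists, 30 further target genes and 15 genes of the receptor machinery (chaperones, coregulators, the mineralocorticoid receptor Nr3c2, and hormone enzymes), tested with edgeR (quasi-likelihood), each p adjusted over all genes of the set by the Benjamini-Hochberg method. These lists too were drawn up with earlier results of this comparison known, so the p of their genes are no independent evidence. Of the targets, 3 of 29 tested were lower in TAN in Pdgfra+ cells, 6 of 24 in the Icam1 subset, 4 of 22 in the F3 subset, 5 of 29 in Pecam1+, 1 of 23 in C1qa+ and 8 of 22 in Cd3e+ cells, and none was higher in these sets. The share of all genes called lower was 0.517, 0.918, 0.667, 0.684, 0.356 and 3.46% in these 6 sets. In the Dpp4 subset 1 of 25 was higher, where 0.104% of all genes were, and none lower, and in Cd79a+ cells none of 19 was called by edgeR in either direction, with 0 at an unadjusted p under 0.05. The median log2 difference of the targets tested was -0.21, -0.40, -0.42, -0.25, -0.15, -0.94, -0.08 and -0.30 in these 8 sets, beside -0.004 to 0.01 over all genes. Of the machinery genes, Hsd11b2 was higher in 3 sets and Dnajb1 lower in 1 (the Icam1 subset, a call kept in only 2 of 8 leave-out fits), and none of the other 13 was called in any set. Where Hsd11b2 was higher, 0.271% of all genes were called higher in Pdgfra+ cells, 0.354% in the Icam1 and 0.343% in the F3 subset. In the Icam1 subset, where Dnajb1 was lower, 0.918% of all genes were. Nothing is read from the number of machinery genes called. The median over the machinery genes lay between 0.05 and 0.14 in all 8 sets.

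Per1, a clock gene that glucocorticoids are known to induce, was lower in TAN in 4 sets. In Pecam1+ cells it measured 66.1, 55.6, 61.9 and 44.3 CPM in the Ad-Lib libraries and 24.2, 25.4, 17.6 and 25.8 CPM in the TAN libraries, a difference of -1.26 ± 0.16 (edgeR adjusted p = 0.00367). In the Icam1 subset it measured 34.2, 26.2, 35.5 and 31.7 CPM in the Ad-Lib libraries and 16.2, 13.7, 13.2 and 18.8 CPM in the TAN libraries, a difference of -1.04 ± 0.14 (edgeR adjusted p = 0.00128). No library overlapped in either set, and both calls held in all 8 leave-out fits. Pdgfra+ cells gave -0.60 ± 0.09 (edgeR adjusted p = 0.00836) and C1qa+ cells 59.6, 44.0, 76.1 and 61.6 CPM in the Ad-Lib libraries and 31.9, 42.7, 28.4 and 41.2 CPM in the TAN libraries, a difference of -0.70 ± 0.15 (edgeR adjusted p = 0.0319), both without overlap. Those 2 calls were lost in 3 and in 5 of 8 leave-out fits.

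Hsd11b2, the enzyme that inactivates glucocorticoid and so opposes Hsd11b1, went the other way. In the Icam1 subset it measured 5.95, 6.18, 6.28 and 7.52 CPM in the Ad-Lib libraries and 33.2, 14.1, 55.1 and 21.1 CPM in the TAN libraries, a difference of 2.10 ± 0.31 (edgeR adjusted p = 0.00238). In the F3 subset it measured 4.61, 3.83, 3.16 and 1.5 CPM in the Ad-Lib libraries and 26.3, 7.40, 33.1 and 12.7 CPM in the TAN libraries, a difference of 2.53 ± 0.39 (edgeR adjusted p = 0.00338). Every TAN library lay above every Ad-Lib library in both, and the calls held in all 8 leave-out fits. Over all Pdgfra+ cells it measured 3.06, 3.41, 3.21 and 3.45 CPM in the Ad-Lib libraries and 17.8, 7.02, 28.4 and 10.9 CPM in the TAN libraries, a difference of 2.21 ± 0.33 (edgeR adjusted p = 0.0102, or 0.0528 without TAN library 2). The levels were low, with 592 UMIs in all Pdgfra+ cells, 7 of them in the Dpp4 subset, 10 in Pecam1+ cells and 0 in C1qa+, Cd3e+ and Cd79a+ cells. TAN libraries spread widely among themselves, with library 6 highest and library 4 lowest in all 3 sets.

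Cdkn1c, a cyclin-dependent kinase inhibitor, was called in opposite directions in subsets of the same libraries. In the Dpp4 subset it measured 172, 177, 138 and 178 CPM in the Ad-Lib libraries and 315, 299, 322 and 217 CPM in the TAN libraries, a difference of 0.78 ± 0.13 (edgeR adjusted p = 0.0172). The Icam1 subset gave 68.2, 79.5, 83.8 and 87.9 CPM in the Ad-Lib libraries and 58.2, 54.2, 41.1 and 48.1 CPM in the TAN libraries, a difference of -0.67 ± 0.12 (edgeR adjusted p = 0.00918). TAN was thus higher without overlap in the first and lower without overlap in the second, and the diet differences lay 1.44 log2 units apart on log2(CPM + 1). The gene was singled out for this pattern, and the difference between the subsets was not tested. The Dpp4 call was lost without TAN library 2 or TAN library 4.

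**Figure D4:**
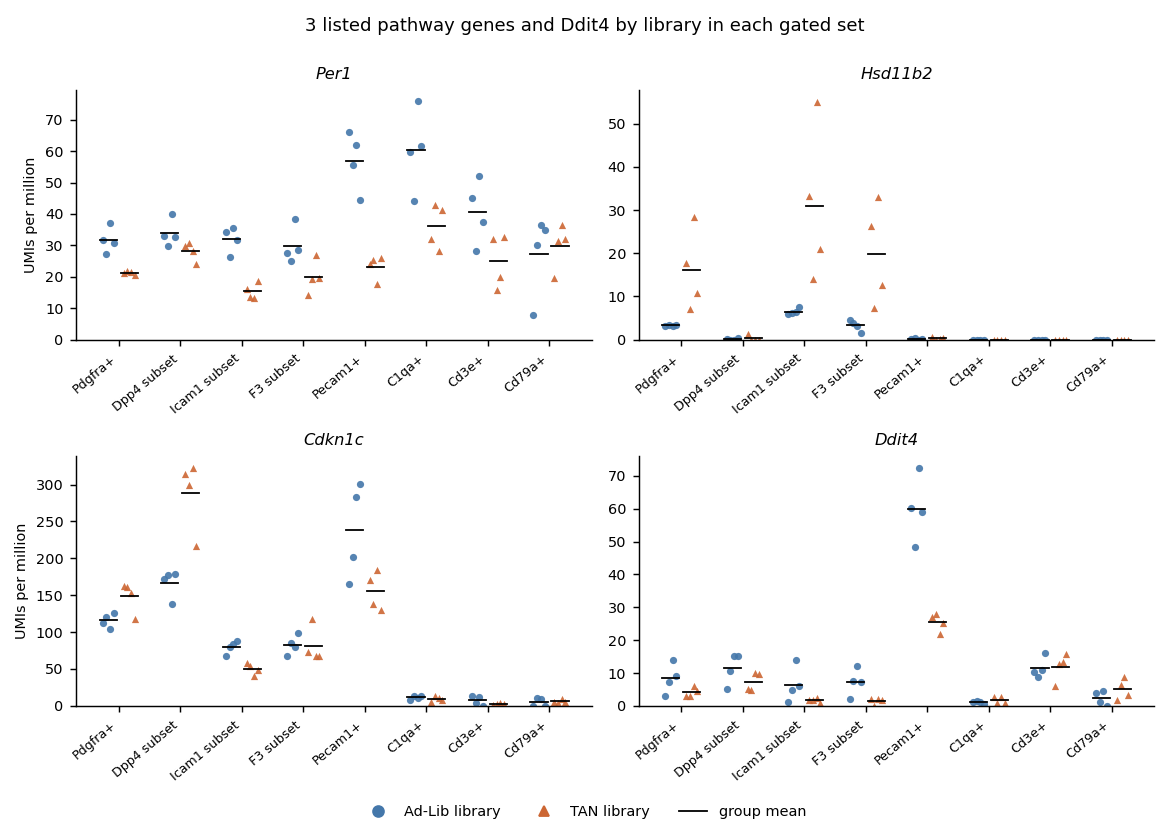
CPM of Per1, Hsd11b2, Cdkn1c and Ddit4 in 8 gated sets, with a circle for each Ad-Lib library, a triangle for each TAN library and a line at each group mean (vertical axes start at 0). Hsd11b2 lies at 5.95 to 7.52 CPM in Ad-Lib and 14.1 to 55.1 CPM in TAN libraries of the Icam1 subset, and Ddit4 at 48.5 to 72.4 CPM in Ad-Lib and 21.8 to 28.1 CPM in TAN libraries of Pecam1+ cells.

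The metallothioneins Mt1 and Mt2, zinc-binding proteins induced by glucocorticoids and by metals, were among the targets most often called. Mt2 was lower in TAN in Pecam1+ cells, with a difference of -1.51 ± 0.14 (edgeR adjusted p = 9.81e-04), where it measured 24.5, 30.8, 25.7 and 28.6 CPM in the Ad-Lib libraries and 8.99, 7.70, 9.13 and 12.3 CPM in the TAN libraries without overlap. It was also lower in 3 stromal sets, with differences of -1.30 ± 0.17 in the Icam1 subset (edgeR adjusted p = 0.00123), -1.39 ± 0.20 in the F3 subset (0.00233) and -0.87 ± 0.18 in Pdgfra+ cells (0.0380, a call lost in 5 of 8 leave-out fits). Mt1 was called in the same 4 sets and in Cd3e+ cells, from -0.83 ± 0.18 in Pdgfra+ cells (edgeR adjusted p = 0.0490) to -2.07 ± 0.48 in Cd3e+ cells (0.0304). The Mt1 call was kept in 8 of 8 leave-out fits in the Icam1 subset, in 5 in the F3 subset and in Pecam1+ cells, in 4 in Cd3e+ and in 3 in Pdgfra+ cells. Among the other targets Errfi1, a feedback inhibitor of the EGF receptor, was lower in 4 sets, Dusp1, a MAP kinase phosphatase, and Cdkn1a, a cell cycle inhibitor, in 2 sets each, and Arl4d in the F3 subset alone. Errfi1 kept its call in 8 of 8 leave-out fits in the Icam1 subset but in 3 in the F3 subset, 4 in Pecam1+ and 3 in Cd3e+ cells, Dusp1 in 5 in the Icam1 subset, Arl4d in 2, and Cdkn1a in 4 in Cd3e+ cells. Cdkn1a in Pecam1+ cells measured 388, 309, 369 and 360.0 CPM in the Ad-Lib libraries and 137, 206, 82.4 and 144 CPM in the TAN libraries, a difference of -1.28 ± 0.22 (edgeR adjusted p = 0.0188) without overlap, and was not called without Ad-Lib library 1 or 7.

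Cd3e+ cells had the most target genes called, and marker lists of T cell states and of other cells also differed between the diets there. Anxa1, a mediator of glucocorticoid action on leukocytes, measured 257, 129, 219 and 163 CPM in the Ad-Lib libraries and 82.2, 36.5, 22.2 and 41.9 CPM in the TAN libraries, a difference of -2.06 ± 0.33 (edgeR adjusted p = 0.0113). Dusp1 measured 661, 319.5, 828 and 570.2 CPM in the Ad-Lib libraries and 281, 151, 163 and 285 CPM in the TAN libraries, a difference of -1.30 ± 0.25 (edgeR adjusted p = 0.0174). Cebpb, a transcription factor of the C/EBP family, measured 182, 130.1, 149.6 and 195 CPM in the Ad-Lib libraries and 89.3, 67.5, 54.6 and 100.1 CPM in the TAN libraries, a difference of -0.96 ± 0.18 (edgeR adjusted p = 0.0175). All 3 were lower in every TAN library than in any Ad-Lib library, and were called in 7, 4 and 5 of 8 leave-out fits. In the same sums 5 naive T cell genes (Lef1, Ccr7, S1pr1, Klf2 and Tcf7) added up to 683 to 1191 CPM in Ad-Lib and 1232 to 1529 CPM in TAN libraries, 5 natural killer genes to 834 to 1203 CPM in Ad-Lib and 426 to 804 CPM in TAN libraries, and 5 stromal genes to 220.4 to 1329 CPM in Ad-Lib and 66.5 to 184 CPM in TAN libraries, with no gene of these lists at 0. The 5 T cell genes were higher in every TAN library as well (2526 to 3361 CPM in Ad-Lib and 3465 to 3614 CPM in TAN libraries), and the 5 Icam1 subset genes lower (111 to 224 CPM in Ad-Lib and 41.7 to 101 CPM in TAN libraries). Cd3e+ cells numbered 61 to 255 per Ad-Lib library and 138 to 843 per TAN library. A different mix of T cells and a different level per cell cannot be told apart in these sums, and the part of either in the result was not tested. Without Ad-Lib library 1, whose Cd3e+ sum held B cell genes, 1.03% of all genes were called in place of 4.52%, 1 of the 45 listed genes and no member among them, while the differences stayed near those with it (-0.95 for Klf9 and -0.69 for Tsc22d3). Member calls were lost without other single libraries as well, as given above.

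Genes of dissociation and early stress moved with the diets in several sets. The summed level of 10 such genes (Fos, Fosb, Jun, Junb, Egr1, Atf3, Ier2, Hspa1a, Hspa1b and Nr4a1) was 16387 to 21167 CPM in Ad-Lib and 13784 to 15766 CPM in TAN libraries in Pdgfra+ cells and 20833 to 25479 CPM in Ad-Lib and 16347 to 18861 CPM in TAN libraries in the Icam1 subset. In the F3 subset it was 18437 to 21419 CPM in Ad-Lib and 14757 to 16083 CPM in TAN libraries, and in Cd3e+ cells 3066 to 5177 CPM in Ad-Lib and 1852 to 2835 CPM in TAN libraries. The groups did not overlap in these 4 sets, TAN being lower, and 0 of 10, 3 of 10, 2 of 10 and 4 of 8 of the genes tested were called lower. In the Dpp4 subset (10349.7 to 15651 CPM in Ad-Lib and 10297 to 13481 CPM in TAN libraries), in C1qa+ (18568 to 22314 CPM in Ad-Lib and 16478 to 19590.3 CPM in TAN libraries) and in Cd79a+ cells (2177 to 5339 CPM in Ad-Lib and 2052 to 3566 CPM in TAN libraries) the groups overlapped and none was called. In Pecam1+ cells, with 9796 to 12669 CPM in Ad-Lib and 4386 to 10854 CPM in TAN libraries and means of 11350 and 8034 CPM, 3 of 4 TAN libraries lay below every Ad-Lib library and TAN library 4 among them, and none of the 10 genes was called. Tissue was digested with collagenase at 37 °C, under which such genes are known to rise, and Dusp1, Errfi1, Zfp36 and Cebpb of the target list are known as early response genes too. The part of these genes in the results of the sets was not tested. In the Icam1 subset the naive T cell list was lower in every TAN library too (871 to 1406 CPM in Ad-Lib and 651 to 847 CPM in TAN libraries), nearly all of it Klf2, a Kruppel-like factor also found outside T cells, while the other 4 genes of that list stayed under 10 CPM in every library. Klf2 was the only gene of the list tested there, and it was called lower.

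**Figure D5:**
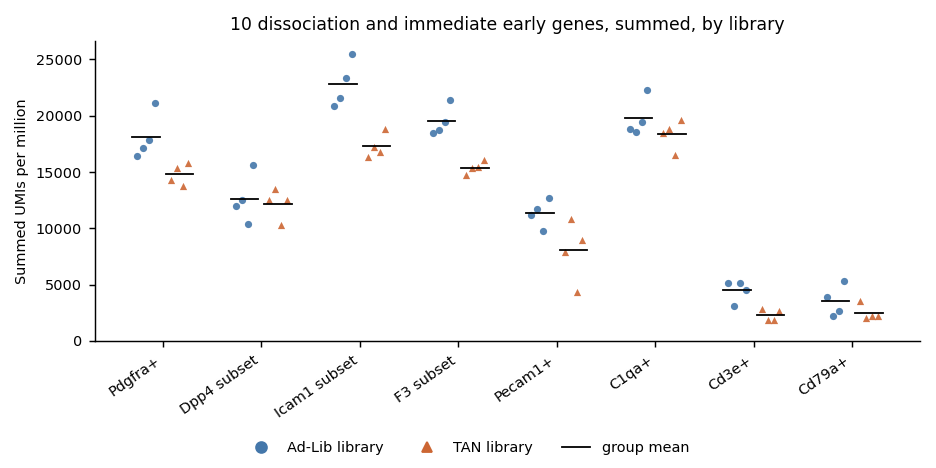
Summed CPM of the 10 dissociation and immediate early genes in 8 gated sets, with a circle for each Ad-Lib library, a triangle for each TAN library and a line at each group mean (vertical axis starts at 0). TAN libraries lie below all Ad-Lib libraries in Pdgfra+ cells, in the Icam1 and F3 subsets and in Cd3e+ cells, while the groups overlap in the other 4 sets, through TAN library 4 alone in Pecam1+ cells.

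Adipocyte transcripts, which droplets of this fraction can pick up, were summed over 8 genes and overlapped between the diets in all 8 sets, at 1011 to 1824 CPM in Pecam1+ cells and 65.4 to 108 CPM in Pdgfra+ cells. Leaving out droplets with a Plin1 or Cidec UMI gave -1.20 for Ddit4, which was still called, and 0.95 for Hsd11b1, which was no longer called, in Pecam1+ cells. The 5 T cell genes in the Pdgfra+ sums were higher in every TAN library, at 1.56 to 3.22 CPM in Ad-Lib and 3.26 to 28.2 CPM in TAN libraries, and their part in the Pdgfra+ differences was not tested.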

How the data were processed

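Single-cell RNA-seq libraries of the iWAT stromal vascular fraction were taken as the authors deposited them, as raw UMI counts per gene and barcode with no normalization. Per the labels the counts came from Cell Ranger 3.0.2 on mm10 (GRCm38), while the file headers name version 6.0.1. Cells were kept at the limits given above, gated at 1 UMI or more of their own marker (3 for C1qa) and 0 of the other lineage markers (at most 1 for C1qa), and a subset needed 2 UMIs of its marker pair and more than both other pairs together. Counts were summed over the gated cells of each library with at least 10 cells.

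Sums of 4 Ad-Lib and 4 TAN libraries were compared in each of 8 sets by edgeR 4.0.16 (R 4.3.3), with filterByExpr, TMM scaling and the quasi-likelihood test, adjusted over all genes that passed the filter. DESeq2 1.42.0 was an alternative. The fit code was also run on simulated counts, a check of the code and not of the calls made here. Levels between lineages were compared by the exact permutation test in Python 3.11.15 with numpy 2.4.6. Members and gene lists were chosen with earlier results of these data known. The naive T cell list was first drawn up with 1 further gene, which was removed from its sums and is not reported here, nor is 1 gene among those closest to Fkbp5. The pathway genes described were, per set, the 3 or fewer of the 45 listed genes called with the smallest adjusted p, and other called genes named beside them (Mt1 outside the F3 subset, Errfi1, Arl4d, Dnajb1, Dusp1 and Cdkn1c in the Icam1 subset, and Cdkn1a in Cd3e+ cells) were chosen after their values were seen. Alternatives were the filter, size factors, DESeq2, the minimum change, a gate at 2 UMIs, cells thinned to 2000 UMIs and gated anew, leaving out droplets with adipocyte transcripts, a pseudocount of 10 CPM for levels, and leaving out each library.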

Additional observations from a re-analysis of the deposited data

Results flagged for a closer look

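Groups of 4 libraries were examined where the 8 libraries of a set held at least 50 UMIs of a member together, and some single groups held fewer. Of 148 such groups 9 had a highest or lowest library whose gap to the nearest other was a larger part of the group's range than Dixon's 95% limit, and chance gives about 1 in 20 groups.

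Klf9 in Ad-Lib library 5 was apart from the other Ad-Lib libraries in 3 stromal sets that share cells. It stood at 643 CPM in Pdgfra+ cells (others 378 to 416 CPM), at 817 CPM in the Icam1 subset (others 473 to 513 CPM) and at 720.2 CPM in the F3 subset (others 429.7 to 461 CPM). Klf9 in TAN library 6 stood at 24.4 CPM in Cd79a+ cells, against 10.8 to 12.1 CPM in the other TAN libraries.

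Sgk1 stood at 228 CPM in TAN library 6 of the F3 subset (others 135 to 145 CPM) and at 442 CPM in Ad-Lib library 7 of Pecam1+ cells (others 355 to 369 CPM). In the F3 subset, Nr3c1 was low in Ad-Lib library 3 at 209 CPM (others 223 to 226 CPM), and Ddit4 was at 0 UMIs in TAN library 4 (others 1.90 to 2.20 CPM), where its F3 sums held 94 UMIs in all, 11 of them in TAN libraries. Tsc22d3 was 222 CPM in TAN library 4 of Cd79a+ cells, against 163 to 168 CPM in the other TAN libraries.

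Cdkn1c stands out because its TAN libraries all lay above the Ad-Lib libraries in the Dpp4 subset and all below them in the Icam1 subset, as described above, with diet differences 1.44 log2 units apart on log2(CPM + 1). The gene was picked for this pattern, and the difference between the subsets was not tested.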

How the results depend on the processing

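The direction of the 17 member differences called was the same in all 234 alternative values, and 38 of 735 alternative values of the 54 not called had the opposite sign. Counts moved more. Of members called, the Dpp4 subset went from 0 to 1 with no minimum change, with DESeq2 and with the 2-UMI gate, and to 3 with no filter, and the F3 subset from 4 to 7 with no filter. Thinning to 2000 UMIs left out 7124 cells, and the gates were drawn anew on the thinned counts, so the cells of a set changed as well. The Icam1 subset of Ad-Lib library 1 went from 446 to 160 cells, and the Cd79a+ cells of TAN library 2 from 91 to 110. Members called were then 2 in the Icam1 subset (from 5), 1 in the F3 subset, 1 in Pecam1+ cells (from 2) and 0 in Cd3e+ cells (from 2). Without Plin1 or Cidec droplets there was 1 in Pecam1+ cells and 0 in Cd3e+ cells, where the 2-UMI gate gave 1. Of the 45 listed pathway genes, thinning gave 0 in the Dpp4 subset (from 1), 3 in the Icam1 subset (from 8), 8 in Pecam1+ cells (from 5) and 2 in Cd3e+ cells (from 8). No filter gave 2 in the Dpp4 subset, 10 in the F3 subset (from 5) and 2 in C1qa+ cells (from 1), where no minimum change gave 3, and DESeq2 gave 3 in the F3 subset.

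With each library left out, members called ranged over 1 to 5 in Pdgfra+ cells (1 without Ad-Lib 5 or TAN 2 or TAN 4, 5 without Ad-Lib 1), 0 to 2 in the Dpp4 subset (1 without Ad-Lib 1 or Ad-Lib 7, 2 without TAN 6), 3 to 7 in the Icam1 subset (3 without Ad-Lib 5 or Ad-Lib 7 or TAN 2 or TAN 4 or TAN 8), 1 to 7 in the F3 subset (1 without TAN 2, 2 without Ad-Lib 5 or TAN 4, 7 without TAN 6), 1 to 4 in Pecam1+ cells (1 without Ad-Lib 1 or Ad-Lib 3 or Ad-Lib 5 or Ad-Lib 7 or TAN 4 or TAN 6, 4 without TAN 2), 1 to 2 in C1qa+ cells (1 without Ad-Lib 1 or TAN 2 or TAN 4) and 0 to 4 in Cd3e+ cells (0 without Ad-Lib 1 or Ad-Lib 5 or Ad-Lib 7 or TAN 4 or TAN 6 or TAN 8, 1 without TAN 2, 4 without Ad-Lib 3). Pathway genes called ranged over 1 to 5 in Pdgfra+ cells (1 without TAN 2 or TAN 8, 2 without Ad-Lib 7 or TAN 4), 0 to 2 in the Dpp4 subset (0 without TAN 2 or TAN 4, 2 without TAN 6), 2 to 7 in the F3 subset (2 without TAN 2, 3 without Ad-Lib 3), 2 to 6 in Pecam1+ cells (2 without Ad-Lib 1 or Ad-Lib 7, 3 without Ad-Lib 3), 0 to 2 in C1qa+ cells (0 without Ad-Lib 5 or TAN 2 or TAN 6, 2 without TAN 8) and 0 to 10 in Cd3e+ cells (0 without TAN 4, 1 without Ad-Lib 1, 2 without Ad-Lib 7 or TAN 6, 5 without Ad-Lib 5). The share of all genes called also moved: over the fits with 1 library left out it ranged over 0.170 to 1.05% in Pdgfra+ cells, 0.0374 to 0.722% in the Dpp4, 0.625 to 1.35% in the Icam1 and 0.420 to 1.20% in the F3 subset, 0.395 to 1.59% in Pecam1+, 0.217 to 0.628% in C1qa+ and 0.394 to 14.1% in Cd3e+ cells, against 0.788, 0.436, 1.27, 1.01, 1.09, 0.620 and 4.52% with all 8, and under the other settings over 0.725 to 1.35%, 0.205 to 0.830%, 1.20 to 1.95%, 0.942 to 1.62%, 0.678 to 1.97%, 0.488 to 1.33% and 2.77 to 6.01% in the same order.

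Levels between lineages and subsets were judged here by the unadjusted exact p at 0.05, not by the adjusted p used above. Thinning turned the Icam1 over F3 difference of Nr3c1 to -0.0744 and took below the threshold those of Map3k6 in Pecam1+ over Pdgfra+ cells (0.42), of Tsc22d3 and Klf9 in the Icam1 over the F3 subset (0.22 and 0.25) and of Zbtb16 and Ddit4 in the Dpp4 over the F3 subset (0.54 and 1.49). Leaving out 1 library turned Tsc22d3 in Cd79a+ over C1qa+ cells to -0.000846 without TAN 4 and -0.0705 without Ad-Lib 7 (-0.07 to 0.23 over all), and Fkbp5 in the Dpp4 over the F3 subset to -0.0215 without TAN 2 and -0.00121 without TAN 4 (-0.02 to 0.12), neither of which had passed. It brought past this unadjusted threshold Nr3c1 (0.0479 to 0.103) and Map3k6 (0.102 to 0.189) in the Icam1 over the F3 subset. The cause of these changes was not tested. No paired analysis was possible because the 2 diets share no replicate number. Low counts limit Ddit4 in stroma and macrophages, Map3k6 in leukocytes, and all of the Cd79a+ sums, where 2 Ad-Lib libraries held 21 cells each.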
